A study of Capra hircus with 72 samples.

Results

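AP-1 is a dimeric transcription factor built from FOS and JUN family proteins, and its genes belong to the immediate early genes, which are transcribed within minutes of a stimulus without new protein synthesis. FOS, FOSB and FOSL2 are FOS family subunits, JUN and JUNB are JUN family subunits, and ATF3 is a stress-induced partner of the wider family. DUSP1 encodes a phosphatase that switches off the MAP kinases that drive these genes, CSRNP1 encodes a nuclear protein induced by AXIN1, and CCN1 encodes a matrix-associated protein induced by growth factors and mechanical stress. In brain, FOS and its relatives are widely used as markers of recent neuronal activity, and glia and vessels transcribe them as well.

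The genes were taken by symbol from the deposited table. Of 10 symbols listed, JUND was not analysed here, which left 9 of the 21343 genes in the table. They were selected on expression values of these same libraries, since earlier results for hypercapnia against room air were known when they were listed, so their differences between conditions are described here and not tested, and the counts past a threshold in those comparisons are no evidence. Levels in one brain region against another were not used to list them, and these are tested. The region tests share their libraries with the hypercapnia comparisons, however. Their values can therefore hold part of the differences behind the listing. A region difference called in only some conditions is no separate evidence.

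The study sampled 4 brain regions of female goats (Capra hircus): medial prefrontal cortex (mPFC), and 3 brainstem sites that take part in the control of breathing, which are the retrotrapezoid nucleus (RTN), the solitary tract nucleus (NTS) and the column of ventral respiratory neurons (VRC). Goats spent 14 days in room air, 14 days at 6% CO2 (mild chronic hypercapnia), or 7 days at 6% followed by 7 days at 8% CO2 (moderate). No genotype, drug or age is given in the labels. Each of the 12 groups had 6 libraries, 72 in all, and the series design gives 6 animals per condition, so each animal appears to supply all 4 regions, although the labels do not tie a replicate number to an animal. P-values measure the spread between these libraries. Library totals ran from 12838991 to 31884742 counts. Over the 18 libraries of a region, the cortical glutamate transporter SLC17A7 had 474 to 1030 CPM (read counts after scaling for library size) in mPFC and at most 170 CPM in the brainstem regions. The hindbrain gene HOXA4 had at most 0.0923 CPM in mPFC and at least 3.4 CPM in each brainstem library.

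Set against each other per length, on the deposited RPKM scale, the 9 genes spanned a wide range of levels. In room air mPFC the JUNB level averaged 97.2 ± 28.4 RPKM (SD, n = 6), DUSP1 47.9 ± 11.8 and FOS 45.6 ± 14.4, and these led the order. CSRNP1 at 14 ± 2.23 RPKM and JUN at 13.9 ± 2.08 RPKM came next and differed by less than their spread. CCN1 averaged 5.52 ± 3.39 RPKM, FOSL2 4.27 ± 1.18 and ATF3 1.58 ± 0.535, and the spreads of CCN1 and FOSL2 overlapped. FOSB was lowest at 0.264 ± 0.139 RPKM. JUNB was also the top member in room air NTS at 26.8 ± 13.7 RPKM and in VRC at 22.1 ± 10.8 RPKM, whereas in RTN DUSP1 at 26.8 ± 8.9 RPKM stood above JUNB at 23.6 ± 6.93 RPKM, by less than their spread. The lengths deposited for FOSL2, JUN, JUNB, ATF3 and CSRNP1 (984, 1008, 1044, 546 and 1767 bases) are multiples of 3, as in models of coding sequence only. The lengths of FOS, FOSB, DUSP1 and CCN1 (2170, 3362, 4081 and 3832 bases) are not, so the order between genes depends partly on which models hold untranslated sequence.

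The prefrontal cortex carried more FOS, FOSL2 and JUNB RNA than each of the 3 brainstem regions in all 3 conditions, and more DUSP1 RNA than each in room air. In room air the mPFC FOS level was 47.2 CPM in the lowest library, 100 CPM at the median and 129 CPM in the highest (CPM, on a common scale over all 72 libraries). FOS medians in the other regions were 21 CPM in NTS, 20.4 CPM in VRC and 25.4 CPM in RTN. Of the 18 brainstem libraries 3 reached into the mPFC range, all of room air replicate 6, with 57.6 CPM in NTS, 50.6 CPM in VRC and 51.7 CPM in RTN. Fitted over the 24 room air libraries, FOS was 3.66-fold higher in mPFC than in the mean of the 3 brainstem regions, a log2 fold change of 1.87 ± 0.25 (SE, edgeR adjusted p 7.2e-07).

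JUNB separated mPFC from the brainstem within every condition. Its room air libraries ran from 55.6 to 136 CPM in mPFC and from 13 to 49.4 CPM in the 18 brainstem libraries, with no overlap. The groups did not overlap in the other conditions either: mPFC libraries held 42.6 to 85.7 CPM in mild and 52.5 to 93.4 CPM in moderate hypercapnia, against 15.5 to 36.2 and 10.4 to 40.5 CPM in the brainstem. The log2 difference was 1.94 ± 0.23 in room air, 1.34 ± 0.14 in mild and 1.71 ± 0.18 in moderate (edgeR adjusted p 6.8e-08, 2.0e-08 and 1.1e-08). JUNB protein is an AP-1 subunit that can replace or oppose JUN at the same sites.

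FOSL2, a FOS family subunit that persists longer after a stimulus than FOS, held 3.03 to 5.82 CPM in room air mPFC and 0.503 to 2.06 CPM in the brainstem, again without overlap. Its log2 difference was 1.55 ± 0.21 in room air (edgeR adjusted p 8.8e-07), 1.31 ± 0.28 in mild and 1.55 ± 0.28 in moderate. In mild FOSL2 overlapped, with 1.91 to 4.04 CPM in mPFC and 0.504 to 2.83 CPM in the brainstem. It did so in moderate too, with 3.49 to 6.46 CPM and 0.464 to 4.84 CPM. Non-overlap between regions was not counted over all genes, so it is given for members only as a description. DUSP1 held 143 to 265 CPM in room air mPFC and 49 to 184 CPM in the brainstem, with 1.04 ± 0.18 on the log2 scale (edgeR adjusted p 2.4e-05). The DUSP1 difference was smaller in mild (0.67 ± 0.15) and in moderate (0.69 ± 0.15). Region by region DUSP1 was not called in mPFC against RTN in mild (0.23 ± 0.19, edgeR adjusted p 0.31) or moderate (0.24 ± 0.20, edgeR adjusted p 0.33). JUN, the founding AP-1 subunit, differed little, with 10.5 to 15.8 CPM in mPFC and 7.02 to 15.7 CPM in the brainstem. Its log2 difference of 0.26 ± 0.10 passed the threshold (edgeR adjusted p 0.025), but not without mPFC replicate 1, 3 or 4, where the adjusted p was 0.066, 0.096 and 0.069.

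ATF3 is given as a description with no test, since it passed the filter on low counts through the brainstem libraries, where it is higher. Room air libraries held 0.466 to 1.2 CPM in mPFC and 0.736 to 5.49 CPM in the brainstem, and the groups overlapped. In mild hypercapnia mPFC libraries held 0.11 to 0.404 CPM against 0.555 to 9.07 CPM in the brainstem, and in moderate 0.0598 to 0.546 CPM against 0.74 to 11.3 CPM. The groups did not overlap in those conditions. ATF3 in mPFC rested on few reads, with 8 to 26 counts per library in room air, 2 to 9 in mild and 1 to 14 in moderate.

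FOSB and ATF3 aside, 5 of 7 members were called in room air mPFC against the brainstem, 5 higher and 0 lower, where 60.9% of all 15700 genes tested were called (30.9% higher, 30.1% lower). In mild hypercapnia 6 of 7 were called, 4 higher and 2 lower, against 57.8% of all genes (30.3% higher, 27.5% lower). In moderate hypercapnia 5 of 7 were called, 4 higher and 1 lower, against 53.3% (26.3% higher, 27% lower). Counted in either direction, numbers of that size among 7 genes are near the background, since most genes differed between cortex and brainstem. More members were called higher than lower, where all genes split nearly evenly, and that split was not tested. CCN1 was lower in mPFC than in the brainstem mean in mild (-0.99 ± 0.23, edgeR adjusted p 0.00069) and moderate (-0.73 ± 0.26, edgeR adjusted p 0.019). In room air it was not called, at -0.31 ± 0.28 (edgeR adjusted p 0.34). Without mPFC replicate 3 or 6 the CCN1 call in moderate was lost, with adjusted p 0.06 and 0.057. Against NTS alone CCN1 was not called, at -0.31 ± 0.27 in mild and 0.11 ± 0.30 in moderate (edgeR adjusted p 0.36 and 0.81). It was called lower against VRC and against RTN in both conditions. CSRNP1 was lower than the brainstem mean in mild (-0.48 ± 0.16, edgeR adjusted p 0.012). Its differences of 0.00 ± 0.13 in room air and -0.17 ± 0.15 in moderate did not pass. In mild it was called lower against VRC (-0.89 ± 0.19) and RTN (-0.65 ± 0.19), but not against NTS (0.11 ± 0.19, edgeR adjusted p 0.66). The mPFC libraries of each condition are those of the hypercapnia comparisons described further on. The CCN1 and CSRNP1 calls, absent in room air, are therefore no evidence separate from those comparisons. Cell makeup differed with region too: summed myelin markers, for 9 of 11 listed genes with a row, reached 7640 CPM in room air mPFC and were at least 39800 CPM in room air VRC. The part of cell makeup in these differences was not tested.

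**Figure D1:**
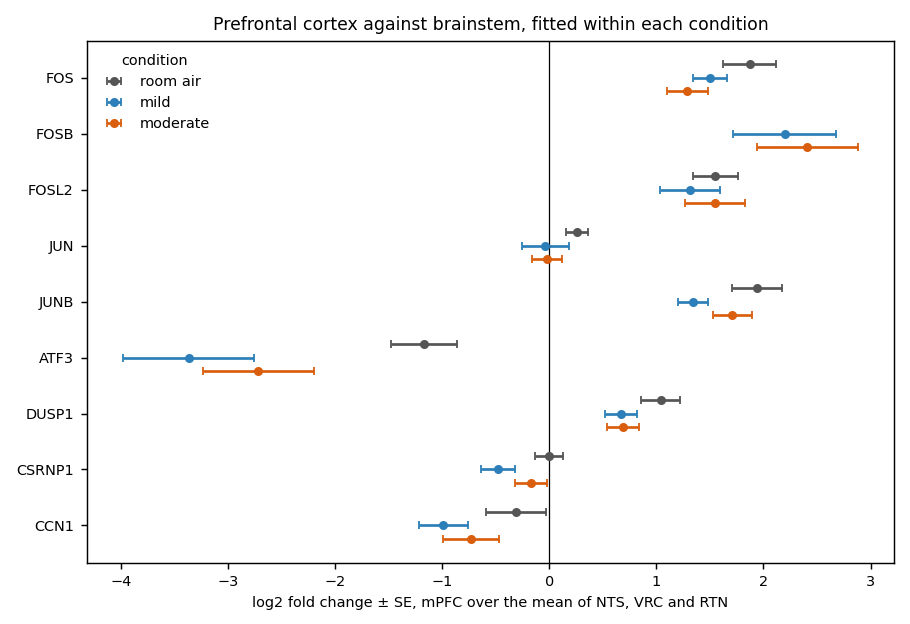
Log2 fold change (x axis, ± SE) of each member in mPFC over the mean of NTS, VRC and RTN, fitted within each condition; FOSB was too low to be fitted in room air, and FOSB and ATF3 are shown as a description, since each passed the low-count filter through the side where it is higher. FOS, FOSB, FOSL2, JUNB and DUSP1 lie right of 0 in every condition shown, ATF3 lies left of it, and JUN lies close to 0.

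FOSB, a paralog of FOS, was rare everywhere. It held 0.258 to 1.46 CPM in room air mPFC, 4 to 27 counts per library, and 0.0572 to 0.341 CPM in the brainstem. In RTN 4 of 6 mild and 3 of 6 moderate libraries held no FOSB count, which at 3 counts allows 0.133 to 0.185 CPM in those 7 libraries. In mild hypercapnia it held 0.22 to 1.31 CPM in mPFC and 0 to 0.635 CPM in the brainstem, and in moderate 0.429 to 2.03 CPM and 0 to 0.696 CPM. The groups overlapped in all 3 conditions. No test is given between regions, since FOSB passed the filter on low counts mainly through mPFC, where 5 of 6 libraries reached the minimum in each condition. Of the region fits of hypercapnia against room air it passed in mPFC alone, so the brainstem comparisons cover 8 members.

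Among the 3 brainstem regions in room air the members differed less. NTS stood below VRC for JUN (-0.61 ± 0.12, edgeR adjusted p 0.00053) and for CSRNP1 (-0.69 ± 0.17, edgeR adjusted p 0.0025), 2 of 8 members, where 33% of all genes were called. JUN was also lower in NTS than in RTN (-0.41 ± 0.12, edgeR adjusted p 0.019), 1 of 8 members against 21.6% of all genes. Without NTS replicate 3 that call was lost (-0.36, edgeR adjusted p 0.054). No member was called between VRC and RTN, where 14.7% of all genes were called. There 1 member had an unadjusted p under 0.05, as did 28.6% of genes, and DESeq2 called CSRNP1. These fits take the libraries as unpaired. With the replicate number as a block edgeR called 2 members in VRC against RTN, CSRNP1 higher (0.44, adjusted p 0.015) and DUSP1 lower (-0.38, adjusted p 0.044), and DUSP1 beside JUN in NTS against RTN (-0.63, adjusted p 0.0015). The share of all genes called with the block is not given here, so these added calls are not read as a result about the members. The lowest to highest JUN levels were 7.02 to 10.6 CPM in NTS, 12.7 to 15.7 CPM in VRC and 9.57 to 12.9 CPM in RTN, so NTS and VRC did not overlap. In the mild libraries NTS stood below VRC for CSRNP1 (-1.01) and CCN1 (-0.97) on the log2 scale, and below RTN for these and DUSP1, 2 and 3 of 9 members where 45.6% and 29.7% of genes were called. The 9 members here and in moderate include FOSB, which was kept mainly through mPFC, so its lack of a call is not read as a test. In the moderate libraries CSRNP1 and CCN1 were lower in NTS than in VRC (-0.85 and -1.10) and FOS was higher (0.82, edgeR adjusted p 0.011), 3 of 9 members against 37.6% of genes. CCN1 (-1.41), DUSP1 (-0.70) and CSRNP1 (-0.69) were then lower in NTS than in RTN, 3 of 9 members against 30% of genes. DUSP1 was lower in VRC than in RTN in mild (-0.59 ± 0.19, edgeR adjusted p 0.04) and in moderate (-0.66 ± 0.20, edgeR adjusted p 0.045), 1 of 9 members each, against 11.9% and 6.07% of genes. The order of the FOS medians in room air among NTS, VRC and RTN lay within the spread of each group.

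In mPFC under mild hypercapnia all 9 members stood below room air in the fit. Their median log2 fold change was -0.73, against -0.01 over all 15403 genes tested, of which 52% were below 0. FOS libraries held 48.1, 54.2 and 89.2 CPM (lowest, median, highest) in mild and 47.2, 100 and 129 CPM in room air. All 6 mild libraries lay below the room air median, and the groups overlapped. The FOS log2 fold change was -0.69 ± 0.23.

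JUNB libraries held 42.6, 55.1 and 85.7 CPM in mild and 55.6, 98 and 136 CPM in room air, with a log2 fold change of -0.73 ± 0.20. DUSP1 libraries held 70.1, 103 and 155 CPM in mild and 143, 181 and 265 CPM in room air, with -0.80 ± 0.23. CSRNP1 libraries held 10.6, 14 and 17.6 CPM in mild and 17.2, 24.2 and 28.1 CPM in room air, with -0.78 ± 0.14. In all 3 genes every mild library lay below the room air median, and the groups overlapped, for CSRNP1 only between 17.2 and 17.6 CPM.

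ATF3 was the member with the widest gap in mPFC. Its libraries held 0.11, 0.162 and 0.404 CPM in mild and 0.466, 0.85 and 1.2 CPM in room air, without overlap, and the log2 fold change was -1.96 ± 0.41. Non-overlap in the lower direction was met by 7 of 15403 genes, 0.0454%. The counts behind it were 2 to 9 per library in mild and 8 to 26 in room air. In the fits between regions 0 of 6 mild mPFC libraries reached the minimum of the low-count filter for ATF3, against 5 of 6 in room air. ATF3 was thus kept in mPFC through groups where it is higher, and its value and non-overlap are only a description. CCN1 libraries held 6.91, 7.67 and 17.2 CPM in mild and 4.72, 19.5 and 36.4 CPM in room air, with -1.01 ± 0.41. The lowest CCN1 library was a room air one, and the room air spread of CCN1 was the widest of the 9 genes at a coefficient of variation of 60.1%.

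FOSL2 (-0.31 ± 0.22), FOSB (-0.16 ± 0.45) and JUN (-0.13 ± 0.27) lay nearer to 0. The mild JUN libraries were widely scattered, from 5.55 to 25.1 CPM against 10.5 to 15.8 CPM in room air. Without mild replicate 5 the JUN value was 0.02 and without room air replicate 1 the FOSB value was 0.06, so their sign was not fixed. Each of the 6 mild libraries had 7 to 9 of the 9 members below the room air median. This was so also in moderate hypercapnia, with 6 to 9 of 9.

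No member passed the adjusted threshold in this comparison, and neither did any other gene. The lowest adjusted p of a member was 0.26, for CSRNP1 (edgeR). At an unadjusted p under 0.05 there were 6 members, ATF3 among them, and 3.45% of all genes. DESeq2 called 2 genes, CSRNP1 (adjusted p 0.0016) and APOLD1, and limma with quality weights called no member.

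Under moderate hypercapnia in mPFC 7 of 9 members stood below room air, with a median log2 fold change of -0.41 against 0.01 over all genes. The values were -0.91 ± 0.39 for ATF3, -0.81 ± 0.41 for CCN1, -0.52 ± 0.22 for DUSP1, -0.51 ± 0.23 for FOS, -0.41 ± 0.14 for CSRNP1, -0.41 ± 0.20 for JUNB and -0.28 ± 0.27 for JUN. FOSL2 at 0.32 ± 0.22 and FOSB at 0.29 ± 0.44 lay above 0. No gene was called by edgeR, and no member by DESeq2 or limma. An unadjusted p under 0.05 was reached by 4 members and by 2.1% of all genes.

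Set against mild, the moderate mPFC libraries held more RNA of 8 of 9 members, with a median log2 fold change of 0.32. None was called by edgeR, DESeq2 or limma, and 3 of 9 had an unadjusted p under 0.05, against 4.71% of all genes. ATF3 stood at 1.05 ± 0.42 and FOSL2 at 0.63 ± 0.22 in that comparison. For ATF3 this is again only a description, since no mild library reached the minimum of the low-count filter. FOSL2 libraries held 3.49, 5.01 and 6.46 CPM in moderate and 1.91, 3.55 and 4.04 CPM in mild. ATF3 held 0.0598, 0.509 and 0.546 CPM in moderate and 0.11, 0.162 and 0.404 CPM in mild, and 1 moderate library lay below all mild ones. The mild and moderate comparisons share the same room air libraries, so their likeness is not separate support.

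**Figure D2:**
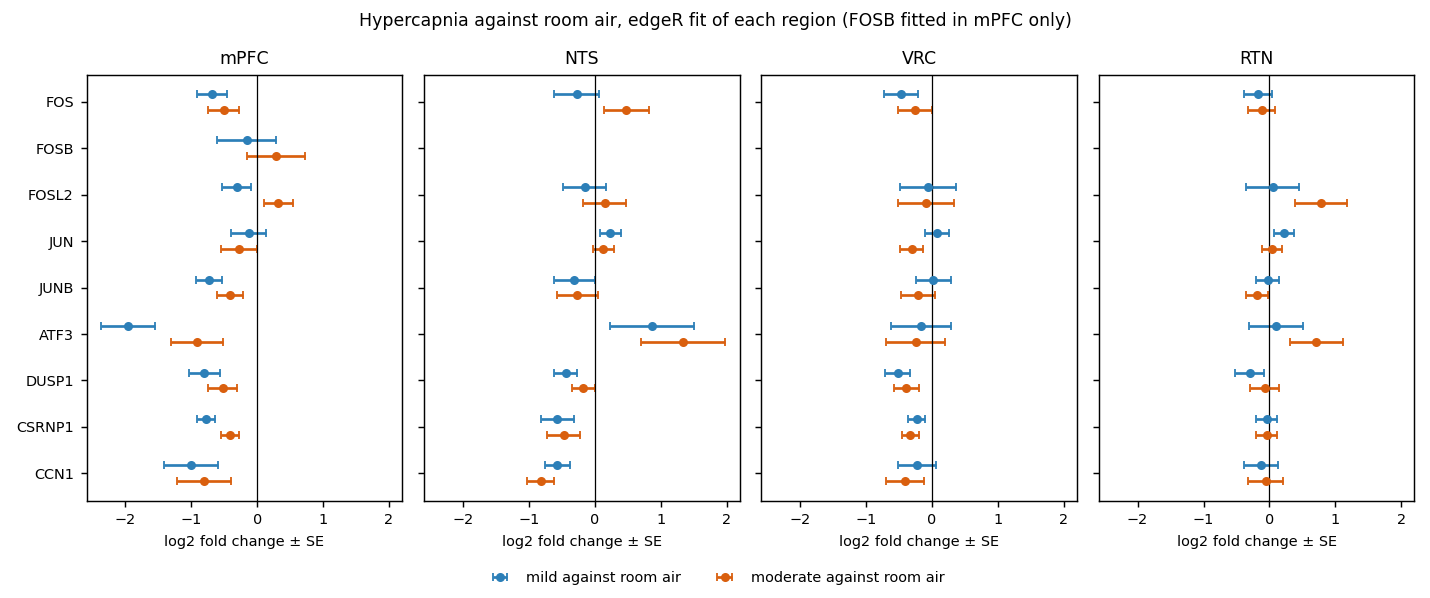
Log2 fold change (x axis, ± SE) of each member in mild (blue) and moderate (orange) hypercapnia against room air, in the edgeR fit of each region. In mPFC all 9 mild values lie left of 0, in NTS the ATF3 values lie right of 0 and the CCN1 values left of it, and in RTN most values lie near 0.

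In NTS the members did not move as a group. Under mild hypercapnia 6 of 8 lay below room air, with a median log2 fold change of -0.29 against -0.01 over all genes. Under moderate hypercapnia 4 of 8 did, with a median of -0.02. CCN1 stood lowest: its libraries held 8.04, 10.9 and 13.4 CPM in moderate and 13.5, 19.1 and 23.6 CPM in room air. The groups did not overlap, which held in the lower direction for 39 of 15418 genes, 0.253%. The CCN1 log2 fold change was -0.82 ± 0.20 in moderate and -0.57 ± 0.19 in mild.

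FOS in NTS held 17.6, 34.4 and 68 CPM in moderate and 15.5, 21 and 57.6 CPM in room air. Of the 6 moderate libraries 5 lay above the room air median, and the log2 fold change was 0.48 ± 0.34. Without room air replicate 6, which alone set the top of the room air range, it was 0.87 ± 0.29, and without moderate replicate 3, the highest of its group, it was 0.20. In mild the FOS value was -0.27 ± 0.34 with that library and 0.12 ± 0.29 without it.

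ATF3 in NTS held 0.736, 1.53 and 2.16 CPM in room air, 0.635, 1.18 and 9.07 CPM in mild and 0.74, 2.57 and 11.3 CPM in moderate. The log2 fold changes against room air were 0.87 ± 0.64 in mild and 1.34 ± 0.64 in moderate. The mild value rested on mild replicate 6, without which it was -0.01. Without moderate replicate 6 the moderate value fell to 0.68. Above the room air median lay 4 of 6 moderate libraries and 2 of 6 mild ones. The mild median lay below the room air median although the fitted value was above 0.

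No member was called in NTS by edgeR, where 1 of 15418 genes (0.00649%), THSD1, was called lower in moderate and none in mild. At an unadjusted p under 0.05 there were 3 of 8 members in mild and 2 of 8 in moderate, against 4.66% and 13.4% of all genes. DESeq2 called CCN1 in moderate (adjusted p 0.048) and no member in mild, and limma called none in either. Myelin markers moved with condition in NTS, with 8 of 9 measured genes below room air in moderate and a median log2 fold change of -0.88. Their summed level ran from 3900 to 14800 CPM in moderate and from 7660 to 35900 CPM in room air, and no listed gene with a row was at 0. With a myelin score as a covariate the moderate value of CCN1 was -0.66, that of FOS 0.17 and that of ATF3 1.31. Other markers differed too. In moderate 7 of 8 neuronal markers lay above room air (median 0.34) and 7 of 8 leukocyte markers below (median -0.34). Summed choroid plexus markers ran from 3.67 to 1650 CPM in moderate and from 1.2 to 308 CPM in room air. The part of cell makeup in the NTS values was not tested.

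In VRC 6 of 8 members under mild and 8 of 8 under moderate hypercapnia lay below room air, with medians of -0.20 and -0.28 against 0.01 over all genes in both. CSRNP1 libraries held 22, 25.4 and 26.1 CPM in moderate and 27.6, 31.1 and 37.5 CPM in room air, without overlap, which held in the lower direction for 0.163% of genes. Its log2 fold change was -0.33 ± 0.13. DUSP1 libraries held 49.8, 59.1 and 85.6 CPM in mild and 59, 86 and 144 CPM in room air, with -0.52 ± 0.19 in mild and -0.39 ± 0.19 in moderate. All 6 mild libraries lay below the room air DUSP1 median. No member was called by edgeR, DESeq2 or limma, with 1 member in mild and 2 in moderate at an unadjusted p under 0.05, against 6.23% and 5.67% of all genes.

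In RTN the members stayed close to room air, with medians of -0.03 in mild and -0.05 in moderate against -0.00 over all genes. FOS held 16.2, 25.4 and 51.7 CPM in room air, 19.5, 23.3 and 35.1 CPM in mild and 21, 26.8 and 28.8 CPM in moderate. The values farthest from 0 were in moderate, 0.78 ± 0.39 for FOSL2 and 0.71 ± 0.40 for ATF3. FOSL2 there rested in part on moderate replicate 3, without which it was 0.38. No member had an unadjusted p under 0.05 in either RTN comparison, where 6.59% and 7.38% of genes did, and none was called by DESeq2 or limma.

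**Figure D3:**
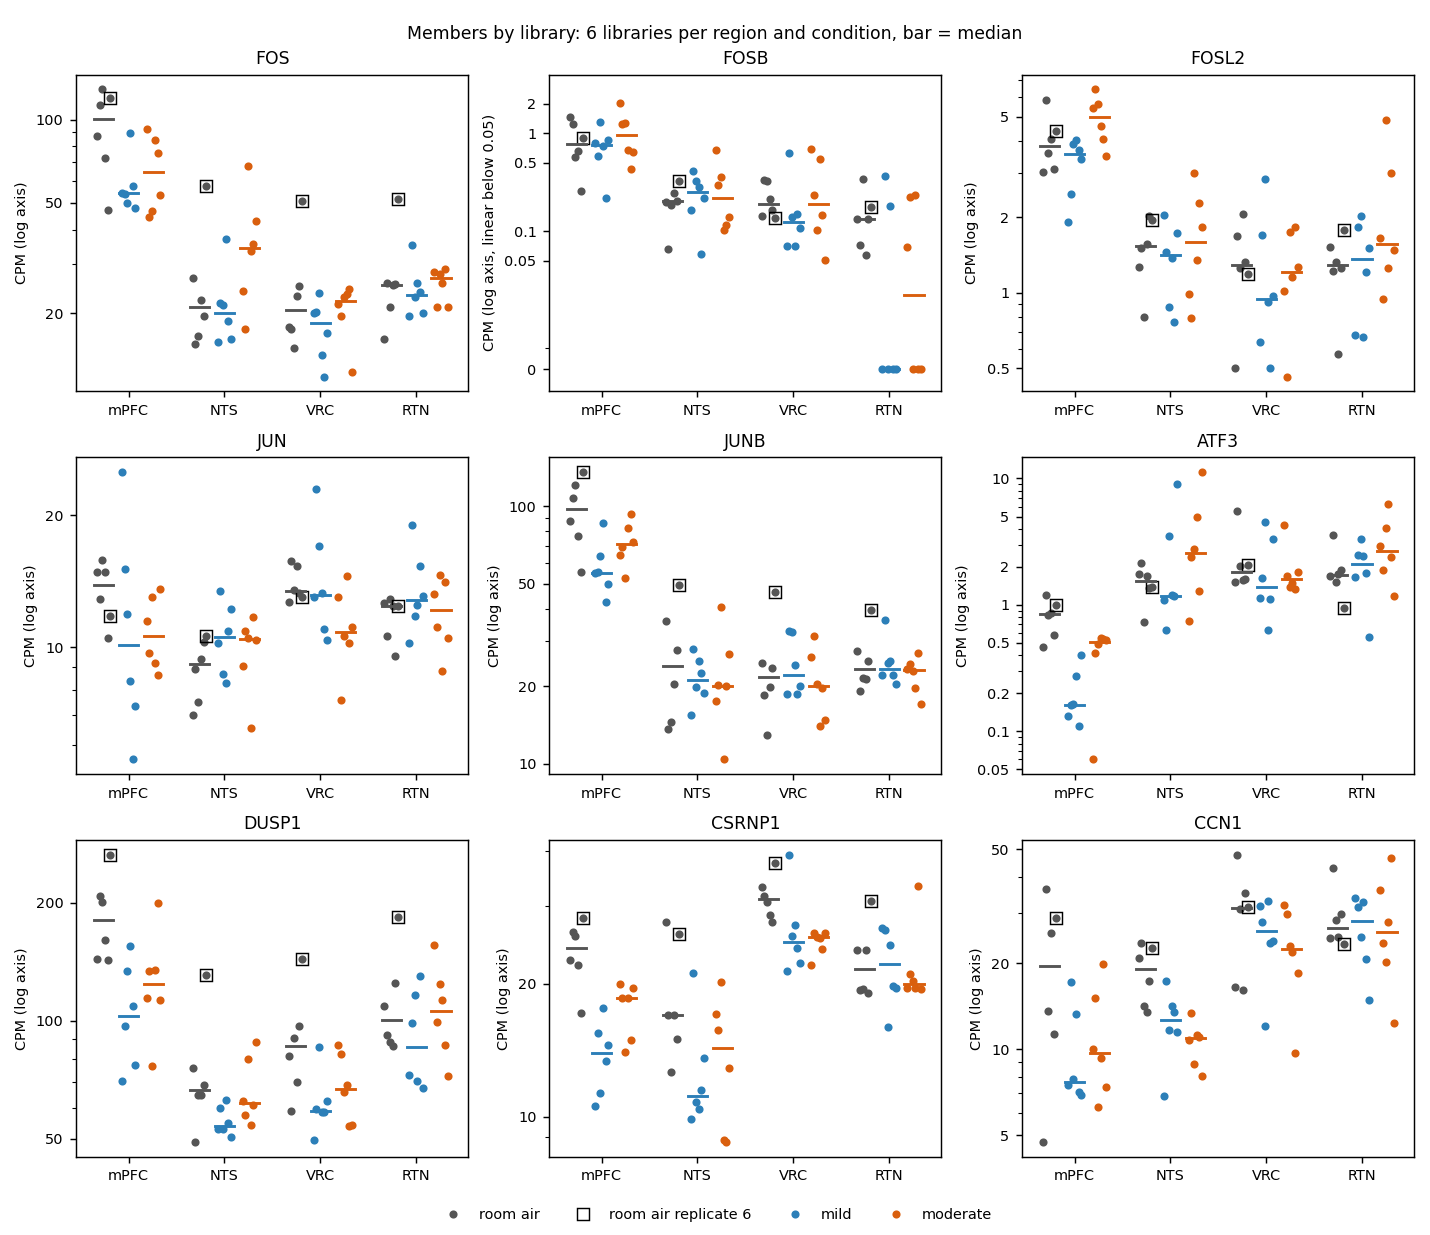
CPM of each member in each library (y axis, log scale, for FOSB linear below 0.05), by region and by condition in the order room air, mild and moderate, 6 libraries per group with a bar at the median. The squares mark room air replicate 6, which is the top room air library for FOS in the 3 brainstem regions and for JUNB and DUSP1 in all 4 regions.

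The room air group was not uniform in these genes. In replicate 6 FOS stood at 57.6 CPM in NTS, 50.6 CPM in VRC and 51.7 CPM in RTN, against medians of 19.6, 17.8 and 25.2 CPM over the other 5 room air libraries. DUSP1 stood at 265, 131, 144 and 184 CPM in mPFC, NTS, VRC and RTN, against medians of 161, 64.7, 81.5 and 92.1 CPM, and JUNB was highest in that replicate in all 4 regions. CSRNP1 was highest in it in mPFC, VRC and RTN. The other members shared this in part. FOSB and JUN in NTS and FOSL2 in RTN were above all 5 others, whereas ATF3 and CCN1 in RTN and FOSB in VRC were below them.

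Depth did not set this replicate apart in mPFC, NTS or RTN, with totals of 17217646, 20502192 and 17349804 counts inside the range of the other 5, and in VRC it was the deepest at 22563047 counts. All 8 summed marker levels of its NTS library lay within the others, among them pericyte and smooth muscle (230 CPM), endothelial (362 CPM) and neuronal markers (8820 CPM). In VRC its endothelial sum was below the others, 429 CPM against 520 to 730 CPM, and so were its pericyte and myelin sums, while its astrocyte sum was above them. In mPFC its endothelial sum was above and its myelin sum below the others, and in RTN its pericyte and myelin sums were below. The part of these levels in the result was not tested. Without replicate 6 the members' median log2 fold change in mPFC was -0.61 in mild, with 9 of 9 still below 0, and -0.35 in moderate, with 7 of 9. In RTN the medians became 0.09 and 0.10, with 4 and 3 of 8 members changing sign, and in NTS they became -0.06 and 0.11. In VRC FOS and JUNB changed sign in moderate, to 0.07 and 0.08.

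ATF3 and CCN1 had a different top library. Both were highest in room air replicate 2 in all 4 regions, with ATF3 at 5.49 CPM in VRC and 3.59 CPM in RTN. Without that library ATF3 in VRC was 0.27 in mild and 0.18 in moderate, in place of -0.17 and -0.25.

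**Figure D4:**
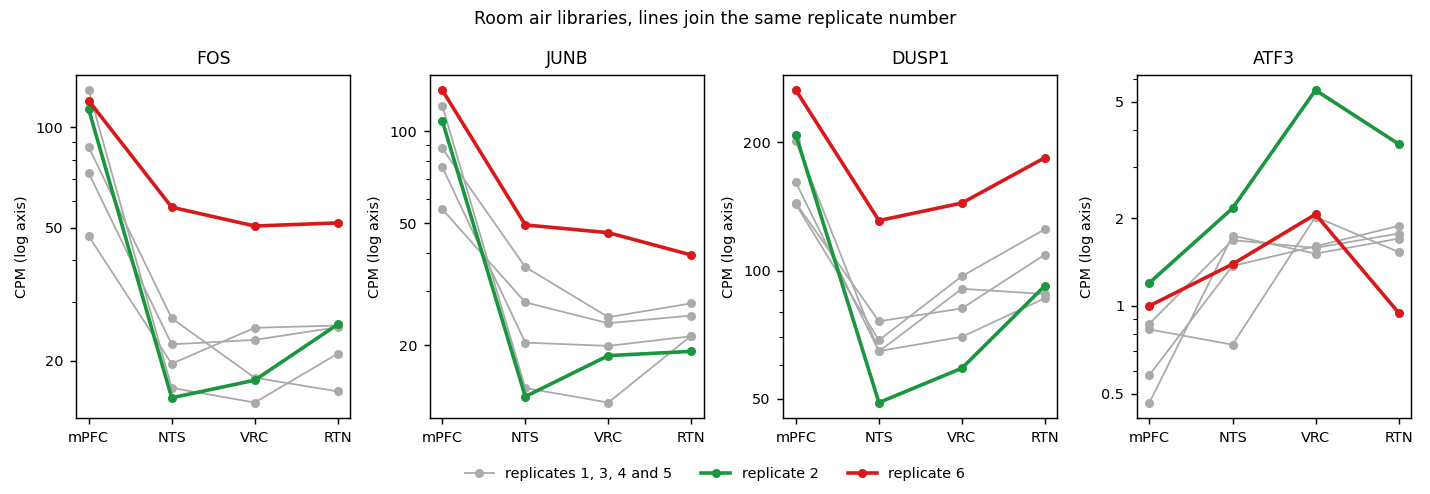
CPM (y axis, log scale) of 4 members in the room air libraries of each region, with lines joining libraries of the same replicate number. Replicate 6 is highest for JUNB and DUSP1 in all 4 regions and for FOS in NTS, VRC and RTN, and replicate 2 is highest for ATF3 in all 4.

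Reading a replicate number as an animal, the level of 1 gene in 1 region was correlated with its level in another over the 18 animals, after removing each condition's mean. Of 54 such correlations 45 were above 0, with a median r of 0.23 and a range of -0.34 to 0.81. No such count was made over all genes. Libraries sharing a replicate number within a condition also resembled each other across regions in general (median r 0.262, 90 of 108 pairs over 0.1). Whether the mostly positive r, or the JUNB result that follows, is particular to the members was therefore not tested. JUNB in VRC against RTN passed the adjustment over the 54, with Pearson r 0.81 (permutation p 0.00033, adjusted 0.018) and Spearman rho 0.79 (permutation p 0.00046, adjusted 0.025), both two-sided. Without the 2 animals farthest from the median in VRC, r was 0.73. FOS in the same pair of regions had r 0.69 (permutation p 0.016, adjusted 0.15), and 0.40 without 2 animals. JUNB in mPFC had r of -0.14, 0.11 and 0.23 with NTS, VRC and RTN, none of them past the adjustment.

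Within groups FOS, JUNB and DUSP1 varied together more closely than the other pairs did. Over the 72 libraries, after each group's mean was removed, FOS and JUNB had r 0.72, JUNB and DUSP1 0.68, FOS and DUSP1 0.62, and JUNB and CSRNP1 0.60. These pairs also varied together within each region, from 0.68 to 0.77 for FOS with JUNB and from 0.55 to 0.84 for JUNB with DUSP1. ATF3 had r between -0.09 and 0.20 with every other member, and JUN at most 0.34, with FOSB. Single regions held higher values for some of these pairs. FOSL2 and JUN had r 0.42, 0.60 and 0.55 in NTS, VRC and RTN, and -0.51 in mPFC. FOSB and JUN had 0.68 in VRC, and ATF3 and CCN1 had 0.50 in mPFC and 0.54 in RTN. The libraries of an animal are not independent and no p is given.

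**Figure D5:**
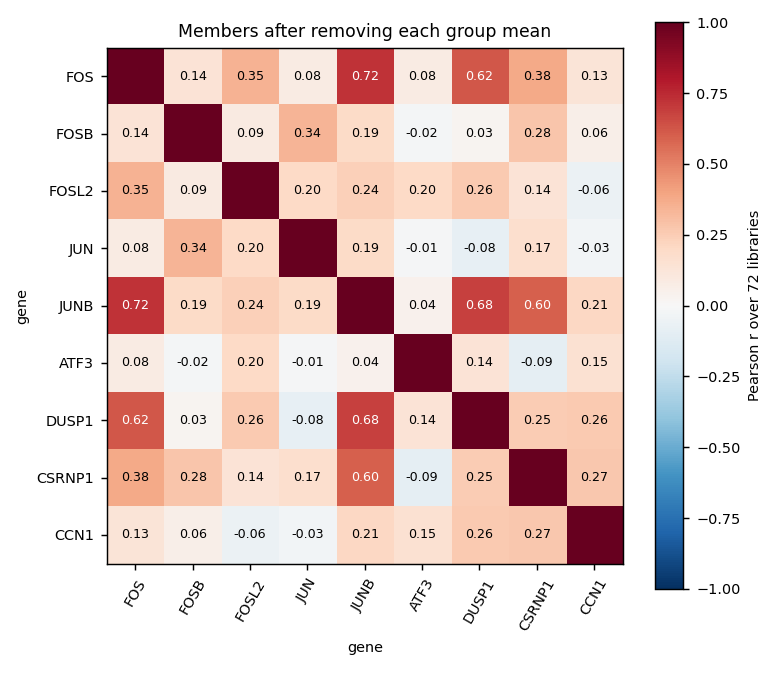
Pearson r between members over 72 libraries on log2(CPM + 1) after removing each group's mean. FOS, JUNB and DUSP1 form the block of highest values (0.62 to 0.72), with CSRNP1 joined to JUNB at 0.60, and ATF3 is near 0 with the others.

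Genes outside the set were ranked by the same measure. Ranked over 10111 genes by their r with the mean of the members, the top 6 were IER2 at 0.69, NR4A1 at 0.63, ZFP36 at 0.62, CEBPD at 0.60, SPIDR at 0.59 and SOX17 at 0.57. IER2 is an immediate early gene, NR4A1 encodes an orphan nuclear receptor with the same kinetics, ZFP36 an mRNA decay factor, CEBPD a stress-induced transcription factor and SOX17 a transcription factor of arterial endothelium. SPIDR and CEBPD are neighbours with 0 genes between them on chromosome 14 in the RefSeq table of the ARS1.2 assembly, and how the counting shared reads between adjacent genes is not given in the sources used here. For FOS alone the top 3 were EGR1 at 0.75, JUNB at 0.72 and NR4A1 at 0.71.

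In mPFC under mild hypercapnia 27 of 34 tested genes on a list of other immediate early genes (36 listed) lay below room air, with a median of -0.33, and none was called by edgeR. An unadjusted p under 0.05 was reached by 11 of 34, beside 3.45% of all genes, and DESeq2 called 1, APOLD1. The most abundant of the list were BHLHE40, a clock-linked repressor, with a log2 fold change of 0.07 ± 0.13, and the kinase SGK1 with -0.16 ± 0.17. Under moderate hypercapnia 25 of 34 lay below, with a median of -0.13, no edgeR call and 5 at an unadjusted p under 0.05, beside 2.1% of all genes. The list was drawn up with earlier results of these data known, and APOLD1 was named after its values were seen. The counts of this list are therefore a description and no evidence.

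In mild mPFC the medians of the other lists ran from -0.28 to 0.00. Of 8 other MAP kinase phosphatases 7 were below, with a median of -0.28, DUSP6 at -0.32 ± 0.13 and DUSP7 at -0.17 ± 0.23. Of 24 tested genes of the MAP kinase and SRF pathway that acts upstream of FOS and JUN 12 were below, with a median of 0.00 and MAP2K1 at 0.01 ± 0.15 and MAP2K4 at -0.00 ± 0.14. Other AP-1, ATF, CREB and MAF factors had a median of -0.06 (12 of 20 below, ATF4 at -0.09 ± 0.07 and NFE2L1 at -0.07 ± 0.10). Textbook AP-1 targets had -0.10 (8 of 14 below, SPP1 at -0.06 ± 0.30 and VIM at -0.27 ± 0.50). Heat shock genes had 4 of 7 below, with HSPA8 at 0.05 ± 0.10 and HSP90AA1 at -0.00 ± 0.08. None of these lists had a gene called by edgeR, DESeq2 or limma in that comparison. At an unadjusted p under 0.05 there were 3, 3, 1, 0 and 0 genes of the 5 lists in that order (of 8, 24, 20, 14 and 7 tested), beside 3.45% of all genes. Earlier results of these data were known when these lists were drawn up as well, so their counts are a description.

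Vessel wall markers moved in mild mPFC as well. All 11 pericyte and smooth muscle markers lay below room air, with a median log2 fold change of -0.59, none called by edgeR, DESeq2 or limma, and no listed gene was at 0. Their summed level was 203 to 542 CPM in mild and 261 to 1420 CPM in room air. With a score of these markers as a covariate the members' median was -0.63 in place of -0.73, and ATF3 was -1.69. CCN1 moved most, to -0.35. All 9 values were below 0, but FOSL2 at -0.06 and FOSB at -0.05 lay close to it. The markers differed with condition themselves, and their part in the members' values was not tested. In moderate mPFC 6 of 11 of these markers lay below 0, with a median of -0.09. Endothelial markers had 2 of 7 below in mild, and neuronal markers 0 of 8, with a median of 0.10. In tissue RNA, fewer cells of a type and less RNA per cell cannot be told apart.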

How the data were processed

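Total RNA libraries were made with a low-input SMARTer kit, per the labels' protocols. The authors deposited raw read counts per gene for 72 libraries, RPKM values for the same libraries, and a length column in the deposited table, of the unit other, with the gene model length in bases. Per the submitters' processing notes, STAR and featureCounts were among the tools, beside Trimmomatic, FastQC and edgeR. The sources used here give neither versions nor a genome build. Because 89.7% of genes had a start-to-end span shorter than the length, no positions are printed, and sequences were not used here.

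Counts were fitted with edgeR 4.0.16 in R 4.3.3 (TMM scaling, genes filtered at a minimum count of 10, quasi-likelihood F-test, Benjamini-Hochberg at 0.05 over all genes). Hypercapnia was fitted per region over 18 libraries and regions per condition over 24 libraries. A fit of the response among regions over 72 libraries is not reported, since the members were listed with such responses known. Printed CPM share 1 TMM scaling over all libraries. DESeq2 1.42.0 and limma 3.58.1 served as alternatives. The code was tested on simulated data. Correlations used log2(CPM + 1) and 100000 permutations. Members, gene lists and tests were chosen with earlier results of these data known. Named genes were the 9 members, the 2 most abundant genes of each list, the 6 genes most like the members and 3 most like FOS, and all genes of a comparison with 5 or fewer calls. APOLD1 was named after its values were seen.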

Additional observations from a re-analysis of the deposited data

Results flagged for a closer look

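Within groups of 6 libraries, 19 single libraries stood apart from the other 5 in a member, over 108 gene, region and condition groups tested with Dixon's criterion. Where values are independent and normally distributed, the criterion flags about 5% of groups, or 1 in 20. These groups share libraries and correlated genes, and the CPM were not put on a log scale. The flags are therefore a description, and no excess over that share is claimed. Room air replicate 6 gave 5 of them: FOS at 57.6 CPM in NTS, 50.6 CPM in VRC and 51.7 CPM in RTN, JUNB at 46.6 CPM in VRC and DUSP1 at 131 CPM in NTS. Room air replicate 2 gave 3, with ATF3 at 5.49 CPM in VRC and 3.59 CPM in RTN and CCN1 at 43.1 CPM in RTN.

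Mild replicate 2 gave 4, with FOSB at 0.635 CPM and CSRNP1 at 39.2 CPM in VRC, CSRNP1 at 21.1 CPM in NTS and JUNB at 36.2 CPM in RTN. Mild replicate 4 gave FOS at 89.2 CPM in mPFC and 37.2 CPM in NTS. Mild replicate 3 gave DUSP1 at 85.6 CPM in VRC, and mild replicate 6 gave ATF3 at 9.07 CPM in NTS. In moderate hypercapnia replicate 1 was lowest in ATF3 in mPFC at 0.0598 CPM, the others holding 0.417 to 0.546 CPM, and highest in ATF3 in VRC at 4.28 CPM. Replicate 5 was highest in CSRNP1 in RTN at 33.2 CPM. What sets these libraries apart was not tested.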

How the results depend on the processing

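Of the results that answer a comparison, 1253 values under alternatives stayed close to the reported one and 64 moved, and the cause was not tested. Of the values of single genes 3349 stayed, 13 moved, 33 reversed and 5 lost a call.

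DESeq2 moved the count of called genes to 2 in mPFC mild, 5 in NTS mild, 19 in NTS moderate, 26 in VRC mild, 10 in VRC moderate, 15 in RTN mild and 26 in RTN moderate, and for moderate against mild to 1 in NTS, 253 in VRC and 128 in RTN. Limma called 3 genes in NTS moderate, 2 in VRC mild, 1 in RTN mild and 35 in VRC moderate against mild. The 2 groups alone gave 0 in NTS moderate and 1 in both VRC comparisons with room air. The myelin score and the newer quasi-likelihood form, an alternative added after the data had been seen, gave 0 in NTS moderate. The pericyte score gave 2 in NTS moderate, 1 in RTN mild, and for moderate against mild 3 in VRC and 30 in RTN. Among members DESeq2 called 1 in mPFC mild, 1 in NTS moderate and 1 in VRC against RTN.

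Same-numbered libraries of 1 condition deviated together (median r 0.262, 90 of 108 pairs over 0.1, 64 of 72 libraries closest to their own number), but those of 1 region across conditions did not (median 0.008, 28 of 72 pairs), so numbers were not taken to pair conditions. The replicate block gave 0 genes in NTS moderate, and 2 called members in both NTS and VRC against RTN in room air, in place of 1 and 0. In room air mPFC against NTS and VRC it called 7 and 6 members, in place of 5 and 5. Without the block 7581 and 9460 of 15700 genes were called there, and the 5 against VRC include ATF3. How many of all genes the blocked fits of regions called is not given here, so their member counts are not read as a result about the members. It called no member in any hypercapnia comparison.

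With single libraries left out, called genes ran from 0 to 1 in mPFC mild, NTS mild, VRC mild, RTN mild, RTN moderate and RTN moderate against mild, and from 0 to 3 in NTS moderate and VRC moderate. In VRC moderate against mild they ran from 0 to 252, the highest without moderate replicate 6. Called members ran from 0 to 2 in NTS against RTN and from 0 to 1 in VRC against RTN. The members' median in mPFC mild ran from -0.86 to -0.61.

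Against the brainstem, CSRNP1 in room air was -0.01 with no filter, and JUN in moderate was 0.00 with RLE factors and with DESeq2. Without single libraries CSRNP1 in room air ran from -0.05 to 0.08, JUN in mild from -0.37 to 0.11 and JUN in moderate from -0.09 to 0.04. Counts per library of ATF3 in mPFC and of FOSB limit their precision.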
